A study of Homo sapiens with 16 samples.

Results

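The genes described here encode the proteins of the cytosolic ribosome. They were chosen by symbol, as RPSA or RPL, RPS or RPLP followed by a number and at most an A or an L, among genes with a protein-coding (NM) transcript on an autosome. This gave 77 of 18460 autosomal protein-coding genes, and the choice used no binding value. The 77 comprise 40 genes of the large subunit (RPL), 30 of the small subunit (RPS and RPSA), 3 of the stalk (RPLP0, RPLP1 and RPLP2) and 4 paralogs whose symbol ends in L (RPL3L, RPL10L, RPL39L and RPS27L). The symbol rule leaves out FAU and the members on the sex chromosomes.

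Binding of BCL11A and ZBTB7A, zinc-finger repressors of the fetal γ-globin genes, was mapped by ChIP-seq, in which DNA crosslinked to a protein is precipitated and sequenced. There were 8 ChIP and 8 control libraries. BCL11A was measured in HUDEP-2, an immortalised human erythroid progenitor line, with 2 ChIP and 2 control libraries. These cells carried the fusion BCL11A-ER-V5, were treated with 4-hydroxytamoxifen at 1e-07 M for 24 h, and were precipitated with an antibody to the V5 tag, so the list describes the tagged protein. ZBTB7A was precipitated with antibodies to the protein itself in K562, an erythroleukaemia line for which the labels give no treatment, from 4 ChIP and 4 control libraries. It was also precipitated in HUDEP-2 (ΔGγ) cells, which lack the HBG2 gene. Their γ-globin promoter was either wild-type (WT) or carried the 195C>G change, and each line gave 1 ChIP library with 1 control. All HUDEP-2 cells were grown with stem cell factor, erythropoietin, dexamethasone and doxycycline. The sample titles call the controls input and the antibody field gives an immunoglobulin. Whether each modified line was a single clone, and what drives the fusion gene, the sources used here do not state.

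The authors deposited 4 lists of regions enriched in ChIP over control reads, and lengths are given after identical regions were counted once. The BCL11A list held 12911 regions, that of K562 17331, that of WT 36435 and that of 195C>G 18784. The first 2 lists pool the replicates and the other 2 rest on 1 library each, so no value has an error between replicates, no test of a difference was possible and the read depth is unknown. A gene is called bound when a region was centred within 1 kb of the start of an NM transcript, the centre being the summit in the WT and 195C>G lists and the midpoint in the others. Rank 1 is the strongest region of a list by the authors' score (BCL11A) or signal (WT and 195C>G). The K562 list holds no value, so its rank is file order, which is assumed and not known to follow strength. Intervals are exact 95% Clopper-Pearson intervals and cover counting error only.

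Ribosomal protein genes are among the most highly transcribed genes of growing cells, and erythroid progenitors make large numbers of ribosomes to translate globin mRNA. Their mRNAs begin with a C followed by a run of pyrimidines, the 5′ terminal oligopyrimidine (TOP) motif, through which their translation follows growth signals. Loss of a single copy of several of them causes Diamond-Blackfan anaemia, a failure of red cell production, and loss of RPS14 contributes to the anaemia of the 5q- syndrome.

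BCL11A bound 27 of the 77 genes, or 35.1% (24.5 to 46.8%), where 25.2% of all autosomal genes were bound. ZBTB7A in K562 bound 29, or 37.7% (26.9 to 49.4%), against 34.0% of all genes. In WT it bound 49, or 63.6% (51.9 to 74.3%), against 46.1%, and in 195C>G 26, or 33.8% (23.4 to 45.4%), against 30.1%. In WT the share over all genes lay below the family's counting interval, and in the other 3 lists it lay inside it. No share was set beside genes matched for activity. Without chromosome 19 the counts were 20 of 65 for BCL11A (30.8%, all genes 25.0%), 26 in K562 (40.0%, all genes 33.6%), 39 in WT (60.0%, all genes 45.0%) and 24 in 195C>G (36.9%, all genes 30.2%).

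Within the lists the bound members were spread from high to low ranks. The median rank of their best region was 5013 in the BCL11A list, where that of all bound genes was 5672. In K562 it was 5010 against 6507, in WT 11677 against 10258, and in 195C>G 6837.5 against 7432. The family's last-ranked promoter regions were those of RPS19 for BCL11A (rank 12538) and RPS28 in the K562 list (13714). In the WT list it was that of RPLP1 (33888) and in that of 195C>G that of RPL15 (17677). The family thus holds both very strong and weak regions in each list, in K562 only if file order follows strength.

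**Figure D1:**
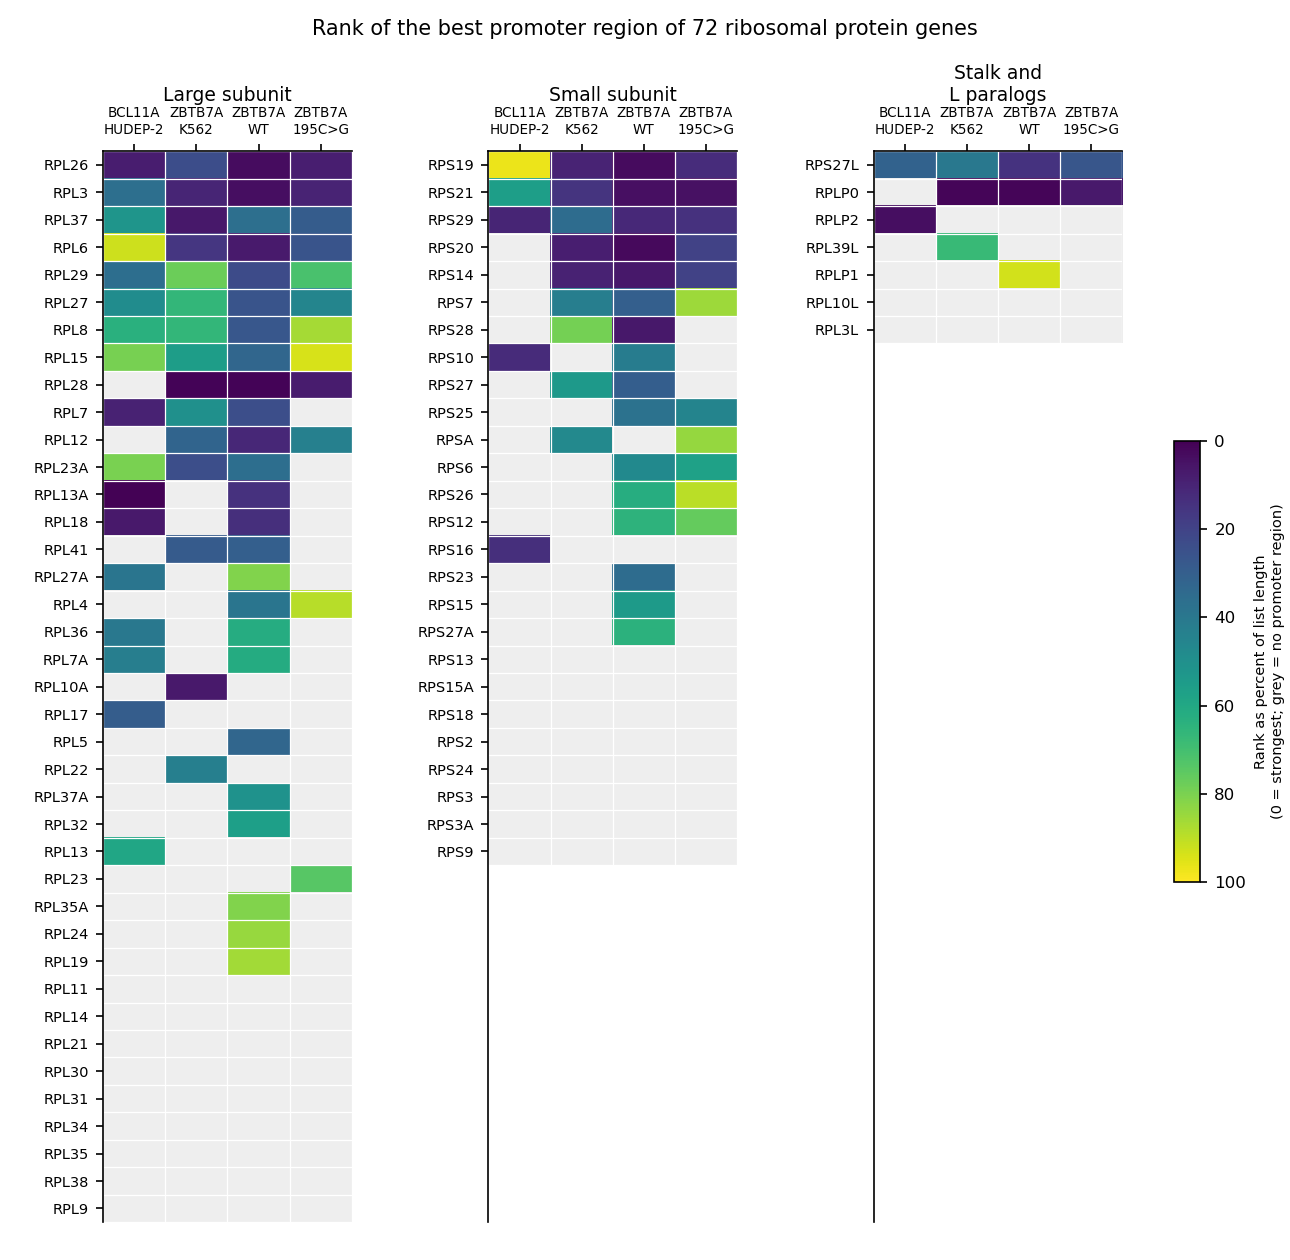
Rank of the best promoter region of 72 of the 77 genes in each list, as a percentage of list length, with dark cells strongest and grey cells without a promoter region. RPL28 and RPLP0 are dark in the 3 ZBTB7A columns, and 19 genes at the bottom of the columns are grey throughout.

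RPL28, a large-subunit gene on chromosome 19, stood at rank 296 in WT with a signal of 146. Its ranks were 140 in K562 and 1454 in 195C>G, where the signal was 93.4, and BCL11A had no region there. RPLP0, which encodes the stalk protein that anchors the P1 and P2 proteins, had K562 rank 214, WT rank 513 (signal 126) and 195C>G rank 1321 (signal 96.3). Its best region was centred 149 to 157 bp downstream of the deposited start in the 3 lists, and 49 to 57 bp downstream of the RefSeq start. In K562 and 195C>G that region reached across the deposited start. WT and 195C>G each held another, lower-ranked region centred at -51 and -44 bp. RPS20 and RPS19 followed in WT, at rank 942 (signal 105) and rank 1023 (signal 103). In K562 RPL28 and RPLP0 were followed by RPL37 at rank 1136. In 195C>G RPS21 stood at rank 865 (signal 111), ahead of RPLP0, RPL28 and RPL26, the last at rank 1605 (signal 89.8).

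Some genes stood far apart in the K562 and HUDEP-2 lists. RPL10A stood at rank 1188 in K562 and had no promoter region in the other 3 lists. RPL37, of K562 rank 1136 (6.55% of list length), had rank 13279 in WT (36.4%) and 5485 in 195C>G (29.2%). RPS28 went the other way, with rank 13714 in K562 (79.1%) and 2363 in WT (6.49%), and had no promoter region in 195C>G. Cell line, number of libraries and selection of regions over replicates differ together between these lists, so the gaps cannot be told apart from the method. The peak caller of the K562 list is not stated.

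In the BCL11A list RPL13A, a large-subunit gene that also hosts small nucleolar RNAs, stood at rank 95 with a score of 444, the place of 27 among 4657 bound genes. RPLP2, which encodes the acidic stalk protein P2, stood at rank 455 (score 193) with its midpoint at -637 bp. RPL18 followed at rank 908 (score 124), in a region shared with the neighbouring gene SPHK2. RPL26, which also binds p53 mRNA, stood at rank 1016 (score 116), and RPL7 at rank 1257 (score 101), in a region shared with RDH10. Of these 5 genes RPL26 alone was bound in all 4 lists. RPL13A, RPL18 and RPL7 were also bound in WT, at ranks 5240, 4937 and 8830, and RPLP2 was bound in no ZBTB7A list.

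Promoter sequence was available for 60 of the 77 genes, as the RefSeq stretch from 250 bp before to 50 bp after the start (GRCh38.p14). The stretches below lie upstream of every NM start of the deposited annotation. They show high-ranked genes (RPL28 in K562 and WT, RPS21 in 195C>G, RPL13A for BCL11A), RPS14, which was bound in all 3 ZBTB7A lists, and RPL11 and RPS24, bound in none. Capitals mark matches on either strand to TGACCA (the core bound by BCL11A), CCGGAAG (the core bound by ETS factors) or CCAAT (the CCAAT box).
RPL28 (chr19:55385682-55385931, plus strand): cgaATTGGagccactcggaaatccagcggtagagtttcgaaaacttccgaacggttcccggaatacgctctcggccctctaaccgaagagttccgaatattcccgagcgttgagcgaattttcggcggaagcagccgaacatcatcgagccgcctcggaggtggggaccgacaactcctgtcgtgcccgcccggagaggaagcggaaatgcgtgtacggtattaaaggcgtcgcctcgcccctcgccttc
RPS21 (chr20:62386853-62387064, plus strand): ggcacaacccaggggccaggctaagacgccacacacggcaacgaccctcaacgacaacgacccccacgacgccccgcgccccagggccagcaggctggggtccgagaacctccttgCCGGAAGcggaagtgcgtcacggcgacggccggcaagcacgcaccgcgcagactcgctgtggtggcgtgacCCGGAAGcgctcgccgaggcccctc
RPS14 (chr5:150449757-150449989, minus strand): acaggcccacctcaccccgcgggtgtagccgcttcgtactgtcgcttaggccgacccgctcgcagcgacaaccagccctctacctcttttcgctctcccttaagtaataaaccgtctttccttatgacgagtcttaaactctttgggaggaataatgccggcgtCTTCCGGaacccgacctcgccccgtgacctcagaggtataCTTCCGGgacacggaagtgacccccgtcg
RPL13A (chr19:49487358-49487553, plus strand): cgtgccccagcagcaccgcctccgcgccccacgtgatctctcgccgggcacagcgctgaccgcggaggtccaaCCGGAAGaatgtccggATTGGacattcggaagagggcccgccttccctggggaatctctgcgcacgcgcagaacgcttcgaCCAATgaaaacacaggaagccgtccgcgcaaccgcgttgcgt
RPL11 (chr1:23691529-23691778, plus strand): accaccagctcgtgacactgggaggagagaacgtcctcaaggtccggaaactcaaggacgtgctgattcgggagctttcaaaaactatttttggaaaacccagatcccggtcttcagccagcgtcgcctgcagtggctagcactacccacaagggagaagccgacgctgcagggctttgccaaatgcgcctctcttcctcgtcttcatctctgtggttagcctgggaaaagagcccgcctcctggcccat
RPS24 (chr10:78033613-78033759, plus strand): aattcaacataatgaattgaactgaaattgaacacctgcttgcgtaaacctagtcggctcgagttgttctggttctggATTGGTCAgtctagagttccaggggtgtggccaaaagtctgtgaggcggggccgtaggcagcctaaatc

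In RPL28 the WT summit fell on base 62 of the printed stretch and the 195C>G summit on base 99, counted from its 5′ end. Neither summit lay on a motif searched, and the stretch held only a CCAAT match on the opposite strand. RPS21 and RPS14 each held 2 matches to CCGGAAG. Their 195C>G summits fell on bases 9 and 13 of the stretches, not on a match. The WT and K562 centres of both genes lay upstream of the printed stretches. In RPL13A the midpoint of the BCL11A region fell on base 78, inside a CCGGAAG match, and the stretch had no TGACCA. RPS24 held TGACCA on the opposite strand, where it shares 3 bases with a CCAAT match, and the printed stretch of RPL11, which ends before its start, held none of the motifs, while a CCGGAAG match lay in the transcribed part of its window.

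Over the whole 300 bp window, CCGGAAG was found in 21 of 60 members (35.0%), against 14.3% of 13933 promoters of the same length. It was found in 15 of 38 members bound in WT (39.5%) and 6 of 22 not bound (27.3%), where all genes had 20.3% and 8.82%. In K562 the members went the other way, with 6 of 21 bound (28.6%) and 15 of 39 not bound (38.5%), where all genes had 19.5% and 11.4%. The shares of members bound and not bound were 38.1 and 33.3% in 195C>G, and 50.0 and 27.5% for BCL11A. The match thus did not go with ZBTB7A binding of members in every list. TGACCA was found in 9 members (15.0%, all promoters 9.27%), namely RPL7A, RPL13, RPL32, RPS3A, RPS10, RPS13, RPS16, RPS24 and RPS29. Of the members bound by BCL11A 5 of 20 held TGACCA, and of those not bound 4 of 40 (25.0% and 10.0%), where all genes had 9.44% and 9.21%. CCAAT was found in 21 members (35.0%, all promoters 35.7%). It was found in 8 of 38 members bound in WT and 13 of 22 not bound (21.1% and 59.1%), where all genes had 35.6% and 35.8%. A C followed by 4 pyrimidines stood at the RefSeq start of 40 members (66.7%), against 4.56% of all promoters. The C-rich ZBTB7A element of the γ-globin promoter was searched as well and was found in 1 member (1.67%, all promoters 1.41%). These are counts of letters in a fixed window, given without a test.

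The regions of ribosomal protein genes lay mostly upstream of the start. In K562 23 of 29 best regions were centred upstream (79.3%), where 52.0% of those of all bound genes were. In 195C>G the count was 22 of 26 (84.6%, all genes 48.5%), in WT 32 of 49 (65.3%, all genes 47.6%) and for BCL11A 16 of 27 (59.3%, all genes 43.3%). The median positions were -125 bp in K562, -148 bp in 195C>G, -69 bp in WT and -67 bp for BCL11A, against -15, 15, 22 and 39 bp for all bound genes. Far upstream lay those of RPL8 in K562 (-922 bp) and RPS12 in 195C>G (-729 bp), and far downstream that of RPL19 in WT (768 bp). With the RefSeq starts, tried after the data were seen for 55 members off chromosome 11, the shares upstream were 78.9% in K562 (all genes 57.5%), 77.8% in 195C>G (53.5%), 58.8% in WT (52.5%) and 62.5% for BCL11A (50.0%). The differences from all genes were smaller than with the deposited starts in each of the 4 lists, and both the starts and the set of genes changed. Of the 55 members 45 had a RefSeq start within 50 bp of a deposited one.

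A region can serve a neighbouring gene as well. Of the best WT regions 13 of 49 also lay within 1 kb of the start of another protein-coding gene (26.5%, all bound genes 19.6%), and for BCL11A 7 of 27 did (25.9%, all bound genes 19.9%). In K562 the count was 5 of 29 (17.2%, 19.3%) and in 195C>G 5 of 26 (19.2%, 19.2%). These counts include joined symbols that contain the member's own, so the partner is not a separate neighbour. They are RPL17-C18orf32 for BCL11A and RPS10-NUDT3 for BCL11A and WT. Shares without such symbols were not computed, so no excess over all bound genes is claimed. Examples are RPL6 with the phosphatase gene PTPN11, RPL15 with NKIRAS1, RPL12 with LRSAM1, RPL4 with ZWILCH and RPS25 with TRAPPC4. For these pairs the list does not tell which gene the region belongs to.

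**Figure D2:**
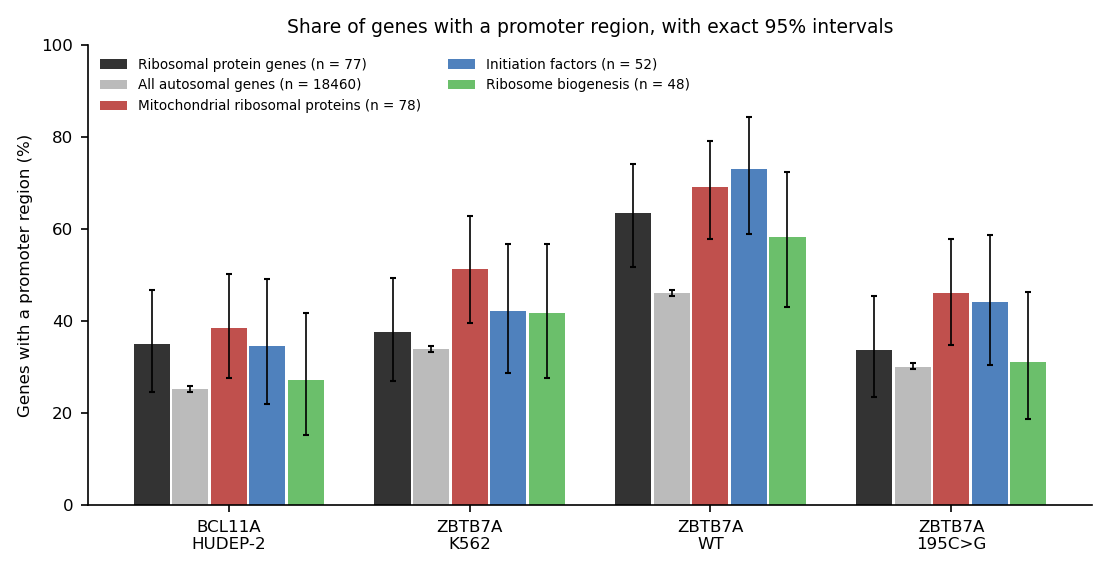
Share of genes with a promoter region in each list for ribosomal protein genes, all autosomal genes and 3 other gene lists of protein synthesis, with exact 95% intervals. In WT the ribosomal protein share of 63.6% stands above the 46.1% of all genes, and the intervals of the ribosomal protein genes and the 3 other lists overlap in every list.

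Other genes of protein synthesis were set beside the family. Mitochondrial ribosomal protein genes, a separate family that serves translation inside mitochondria, were 78 in number. BCL11A bound 30 of them (38.5%), and ZBTB7A bound 40 in the K562 list (51.3%), 54 in that of WT (69.2%) and 36 in that of 195C>G (46.2%). Translation initiation factor genes gave, in the same order of lists, 18, 22, 38 and 23 of 52 (34.6, 42.3, 73.1 and 44.2%). Genes of ribosome biogenesis gave 13, 20, 28 and 15 of 48 (27.1, 41.7, 58.3 and 31.2%). Of 7 ribosomal protein genes outside the symbol rule BCL11A bound 1 (14.3%). ZBTB7A bound 2 of them in the K562 list (28.6%), 4 in that of WT (57.1%) and 1 in that of 195C>G (14.3%). Bound in no list were 2 of the 7 (28.6%, all genes 43.9%), namely RPL22L1 and FAU, which encodes a ubiquitin-like fusion protein. Of the 4 gene lists the cytosolic family had the lowest share in K562, the next to lowest in 195C>G and WT, and the next to highest for BCL11A.

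Genes of both subunits were bound in every list. All autosomal genes gave 46.1% in WT, 34.0% in K562, 30.1% in 195C>G and 25.2% for BCL11A. In WT 26 of 40 large-subunit genes (65.0%) and 20 of 30 small-subunit genes (66.7%) were bound, and in K562 15 and 11 (37.5 and 36.7%). In 195C>G the counts were 12 and 12 (30.0 and 40.0%). BCL11A bound 17 large-subunit genes (42.5%, 27.0 to 59.1%) and 8 small-subunit genes (26.7%, 12.3 to 45.9%), and these intervals overlap. Each stalk gene had a pattern of its own, with RPLP0 in the 3 ZBTB7A lists, RPLP1 in WT alone at rank 33888 and RPLP2 in the BCL11A list alone. Of the paralogs, RPS27L, a target of p53, was bound in all 4 lists, RPL39L in K562 alone at rank 11651, and RPL3L and RPL10L, which serve muscle and testis, in none.

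The Diamond-Blackfan anaemia genes were set beside the other members. Of 20 genes of the anaemia BCL11A bound 7 (35.0%), and ZBTB7A 9 in the K562 list (45.0%), 14 in that of WT (70.0%) and 7 in that of 195C>G (35.0%). Of the 57 others BCL11A bound 20 (35.1%), and ZBTB7A 20 in the K562 list (35.1%), 35 in that of WT (61.4%) and 19 in that of 195C>G (33.3%). All autosomal genes gave, in the same order, 25.2, 34.0, 46.1 and 30.1%. The intervals of both groups overlapped in every list, and in K562 they were 23.1 to 68.5% and 22.9 to 48.9%. Intervals this wide on 20 genes do not show that the rates are alike. RPS19, the gene most often mutated in the disease, was bound in all 4 lists, with WT rank 1023, K562 rank 1720, 195C>G rank 2365 (signal 77.1) and BCL11A rank 12538 (score 13.8). RPS14 was bound in the 3 ZBTB7A lists, with K562 rank 1634, WT rank 2394 (signal 75.2) and 195C>G rank 3734 (signal 63.7). RPL5 and RPL11, whose proteins bind MDM2 with the 5S RNA when ribosome assembly is disturbed, differed. RPL5 was bound in WT alone, at rank 12112 with a signal of 33.4, and RPL11 in no list, with its nearest WT region 51577 bp downstream of its start.

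Joined by gene, 13 members were bound in all 4 lists (16.9%, all genes 10.5%), among them RPL3, RPL6, RPL8, RPL15, RPL26, RPL27, RPL29, RPL37, RPS19, RPS21, RPS27L and RPS29. A further 6 were bound in the 3 ZBTB7A lists without BCL11A, which were RPL12, RPL28, RPLP0, RPS7, RPS14 and RPS20. Without chromosome 19, 12 of 65 members were bound in all 4 lists (18.5%, all genes 10.2%). All 3 ZBTB7A lists held 19 members (24.7%, all genes 20.7%). Another 19 were bound in no list (24.7%, all genes 43.9%), namely RPL3L, RPL9, RPL10L, RPL11, RPL14, RPL21, RPL30, RPL31, RPL34, RPL35, RPL38, RPS2, RPS3, RPS3A, RPS9, RPS13, RPS15A, RPS18 and RPS24. Within 5 kb of a start, 5 of these had a region, and 14 members (18.2%, all genes 37.6%) had none.

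A few of the absent genes have further placements in the annotation. The deposited annotation places RPS9 on 9 and RPS18 on 5 alternative contigs besides the chromosome, and RPL21 at starts on chromosomes 10 and 13. The WT list holds 10 and the 195C>G list 4 regions on alternative contigs, none of them at these genes. Reads from near-identical copies and from the many processed pseudogenes of the family can be split or discarded, and their part in the absence of a region was not tested.

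Of the 27 BCL11A-bound members 85.2% were bound in at least 1 ZBTB7A list, against 88.6% of all BCL11A-bound genes. Of the 27, 23 were also bound in WT (85.2% of the BCL11A and 46.9% of the WT members), where 77.4% of all BCL11A-bound genes were. In K562 15 of the 27 were bound (55.6%, all genes 61.1%), and in 195C>G 13 (48.1%, all genes 57.1%). BCL11A and WT regions were of the same build for 22 of the 23 genes, and for 21 of them the best regions overlapped by at least 1 bp, with RPL23A the exception (95.5%, all genes 72.5%). The centres lay a median of 171 bp apart, against 225.5 bp for all genes bound in both. The 4 genes bound by BCL11A alone were RPL13 (rank 7638), RPL17 (rank 3786), RPLP2 and RPS16 (rank 1744, score 81.6).

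ZBTB7A in K562 and in WT met at 25 members, which were 86.2% of the K562-bound and 51.0% of the WT-bound genes (80.4% of all K562-bound genes were bound in WT). The best regions overlapped in 24 of the 25, the exception being RPL8 (96.0%, all genes 86.4%), and their centres lay a median of 35 bp apart (all genes 65 bp). RPL10A, RPL22, RPL39L and RPSA were bound in K562 and not in WT.

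Of the 49 members bound in WT, 24 were also bound in 195C>G (49.0%, 34.4 to 63.7%), where 63.7% of all WT-bound genes were. RPL23 and RPSA were bound in 195C>G and not in WT, at ranks 13929 and 15784. Where both lists had a member, the best regions overlapped in 24 of 24 (all genes 92.1%), with summits a median of 36 bp apart (all genes 52 bp). The 24 kept genes had WT signals of 21.1 or more with a median of 55.5, and the 25 others from 15.9 to 75.7 with a median of 28.8. The ranges overlap, and the 8 strongest members in WT were all kept. Each list is 1 library and the 195C>G list is the shorter, so absence from it does not show that binding was lost.

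**Figure D3:**
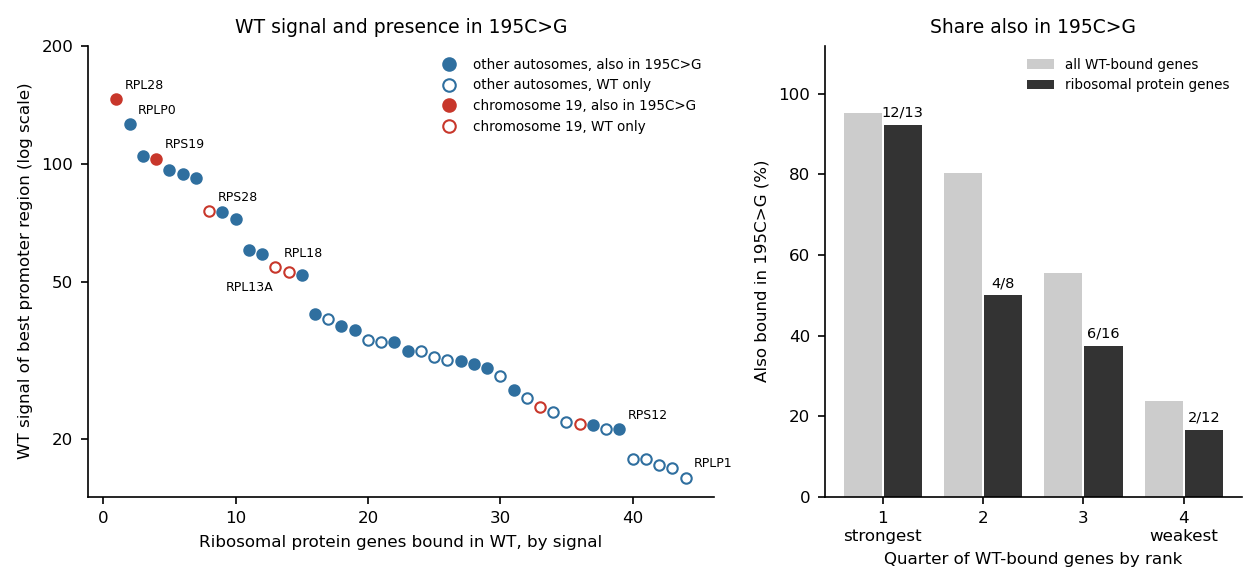
Left, WT signal (log scale) of the best promoter region of 44 of the 49 WT-bound genes in order of signal, filled where 195C>G also had a promoter region and red on chromosome 19. Right, share also bound in 195C>G in 4 bins of WT rank for all WT-bound genes and for ribosomal protein genes, falling from 95.2 to 23.7% for all genes and from 12 of 13 to 2 of 12 for the family.

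Retention fell with WT rank, as it did for all genes, when the WT-bound genes were put in 4 bins of equal size. At WT ranks 4 to 4313, 12 of 13 members were kept (92.3%, all genes 95.2%), and at ranks 4314 to 10257, 4 of 8 (50.0%, all genes 80.4%). At ranks 10258 to 18965, 6 of 16 were kept (37.5%, all genes 55.5%), and at ranks 18968 to 36422, 2 of 12 (16.7%, all genes 23.7%). The members' share lay below that of all genes in each bin, on few genes.

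Chromosome 19 holds 12 of the 77 genes. In WT 10 of them were bound (83.3%, all genes of the chromosome 59.0%), and BCL11A bound 7 (58.3%, 27.7%). In K562 3 were bound (25.0%, 39.0%) and in 195C>G 2 (16.7%, 28.7%). RPL28 and RPS19 were the genes kept from WT to 195C>G. Among the 8 others were RPS28 (rank 2363, signal 75.7), RPL18 (4937, 54.6), RPL13A (5240, 53.0), RPS15 (19780, 24.1) and RPL36 (22604, 21.8). None of these 8 WT regions was overlapped anywhere by a 195C>G region, and the nearest 195C>G region to an RPS28 start lay 2425 bp downstream. Of all WT-bound genes on chromosome 19, 48.4% were kept, so the low retention there was not limited to the family. RPS16 was bound by BCL11A alone and RPS9 in no list.

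Off chromosome 19, 22 of 39 WT-bound members were kept (56.4%, 39.6 to 72.2%), against 65.3% of all genes, and this share lay within the counting interval. In the same bins of WT rank, from the strongest, 10 of 10 members off chromosome 19 were kept (all genes 98.5%), then 4 of 5 (83.8%), 6 of 14 (57.7%) and 2 of 10 (25.1%). The 17 not kept there included RPL5, RPL7, RPL7A, RPL19, RPL23A, RPL24, RPL27A, RPL32, RPL35A, RPL37A, RPL41, RPLP1, RPS10, RPS23, RPS27 and RPS27A. Their WT signals ran from 15.9 to 40.3, with RPL7 the strongest, while those of the 22 kept genes were 21.1 or more. Thus RPS28, RPL18 and RPL13A, all on chromosome 19, were the members of strongest WT signal without a 195C>G region.

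Chromosome 11 holds 5 of the genes, and its coordinates in the WT and 195C>G lists are those of a modified chromosome from which HBG2 was removed. RPS25 was bound in WT (rank 13754) and 195C>G (rank 8462), in the region it shares with TRAPPC4. RPL27A was bound by BCL11A (rank 5013) and in WT (rank 29531), RPLP2 by BCL11A alone, and RPS3 and RPS13 in no list. RPLP2 lies before the removed stretch. Its start differs by 31 bp between the modified annotation and the RefSeq gene table, while that of RPS13, behind the removed stretch, differs by 4922 bp. With the shift added to every gene of the chromosome, RPLP2 would lose its BCL11A region and the BCL11A count would be 26. With starts of the RefSeq gene table the count was 27.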

How the data were processed

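The 16 ChIP-seq libraries are known here through 4 deposited lists. The submitters' processing notes name the build GRCh38/hg38 and the tools Trimmomatic 0.3.2, Bowtie2 2.2.9, Bowtie, Picard and bedtools, with no role or order. Per the file names, the deposited BCL11A and K562 lists are optimal sets of the irreproducible discovery rate over replicates, and SPP called the regions of WT and 195C>G. For BCL11A the authors deposited a score of unstated scale. For WT and 195C>G they deposited a signal, whose scaling by the authors is not stated, and the deposited −log10 of the false discovery rate (4.34 for RPL28 and 2.16 for RPLP1 in WT). The deposited K562 list gives none, so file order served as its rank.

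Regions were limited to standard chromosomes. Starts came from the deposited annotation of hg38 with a modified chromosome 11. For the BCL11A and K562 lists the removed length was added to chromosome 11 starts after HBG1 only, since genes before it are not displaced, and chromosome 11 was left out where regions of both builds were overlapped. Counts were made with Python 3.11.15, pandas 2.3.3 and scipy 1.17.1, and the assignment of regions to genes was tested on simulated regions. The members and lists were chosen with earlier results of these data known. Genes were named by rule: the 5 of best rank in each list, those bound in all lists or none, those bound in WT and not in 195C>G, those on chromosomes 11 and 19, and RPS19, RPL5, RPL11 and RPS14. A few genes that these rules name are not reported here, though counts include them. Other genes were named after their values were seen, as was the RPS14 promoter among those printed. Of 50 listed biogenesis symbols 48 matched, and of 8 outside the rule 7. No reads were available here, so depth and replicate spread could not be used.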

Additional observations from a re-analysis of the deposited data

How the results depend on the processing

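Of 66 alternative counts, 61 lay within 1.5 times the reported count, and in 66 the members' share stayed on the same side of the share over all genes. The alternatives were windows of 500 bp and 5 kb, the stronger 50% of each list, any overlap with the window, the most upstream start, leaving out chromosome 19, chromosome 11 or the L paralogs, other chromosome 11 starts, and overlap of the WT region itself. Leaving out chromosome 11 (5 members) or the L paralogs (4 members) could move a count only a little. The side alone does not show the size of a gap: with the 5 kb window K562 gave 40.3%, against 39.7% of all genes. The stronger 50% of each list was taken by file order in K562. With it 16 members were bound in 195C>G (20.8%, all genes 18.5%) and 5 in all 4 lists (6.49%, all genes 3.67%). In none of the lists were 32 bound (41.6%, all genes 57.0%), as fewer regions are counted. With RefSeq starts, chosen after seeing the data and covering 55 members, BCL11A bound 16 (29.1%, all genes 24.7%) and K562 19 (34.5%, 33.3%). Both the starts and the genes counted differ there, and the cause was not tested. With 50% reciprocal overlap 19 of 49 WT regions were kept (38.8%, all genes 52.3%). No paired analysis was possible because the results come from no test and the lists are pooled or from 1 library, and leaving out a replicate could not be done for the same reason.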
